A study of Homo sapiens with 9 samples.

Results

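The genes described here are those that set the exit from G1: the D-type cyclins CCND1, CCND2 and CCND3, their kinase partners CDK4 and CDK6, the kinase inhibitors CDKN1B and CDKN2C, and the pocket proteins RB1, RBL1 and RBL2. They were taken by symbol from the deposited gene table, where all 10 were found among 23368 symbols, and all 10 passed the filter on low counts that left 13648 genes to test. RNA was sequenced from A673, a human Ewing sarcoma cell line, in 3 groups of 3 libraries. The cells had been reverse transfected at 13 nM with siLRWD1-5, with siLRWD1-6 or with a scrambled siRNA, and RNA was taken after 48 h. LRWD1 is a protein that associates with the origin recognition complex. All groups were grown in medium with serum approved for Tet systems, Zeocin and blasticidin S. The labels speak of independent experiments in this single cell line, so the p-values measure the spread between those experiments in A673 only.

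In early G1, D-type cyclins bind CDK4 or CDK6, and the active kinases phosphorylate the pocket proteins. Unphosphorylated RB1 holds back activating E2F factors, while RBL1 (p107) and RBL2 (p130) bind repressive E2F proteins and, with the MuvB core, form the DREAM complex on cell cycle promoters. CDKN2C (p18) is an INK4 inhibitor that binds CDK4 and CDK6, and CDKN1B (p27) binds cyclin-CDK complexes and is best known as an inhibitor of CDK2. Ewing sarcoma cells are known for high CCND1, and A673 is known to lack the INK4 gene CDKN2A.

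The deposited counts summed to between 11971179 and 15674452 per library. LRWD1 itself averaged 10.8 ± 0.50 CPM (counts scaled to the TMM-adjusted library total) after siLRWD1-5 and 7.74 ± 1.05 CPM after siLRWD1-6, against 51.0 ± 3.13 CPM after the scrambled siRNA (SD, n = 3 each). Of 10 Ewing sarcoma markers, 9 passed the filter (CD99 did not), and their summed level was 387 to 440 CPM after siLRWD1-5, 500 to 527 CPM after siLRWD1-6 and 564 to 621 CPM after the scrambled siRNA. Of 16 markers of epithelial, blood, endothelial, muscle and melanocytic cells, only KDR passed. The 16 summed to 9.26 to 10.2 CPM after siLRWD1-5, 3.73 to 4.74 CPM after siLRWD1-6 and 5.56 to 10.5 CPM after the scrambled siRNA, and KRT19, CD3E, MYOD1 and MYOG were at 0 in all libraries. The part of either marker list in the results below was not tested. Of the 9 Ewing sarcoma markers tested, 6 fell with siLRWD1-5 and 1 with siLRWD1-6, where 20.3% and 7.78% of all genes were lower calls, and KDR fell with siLRWD1-6. In these bulk samples, fewer cells in a phase of the cycle and less RNA per cell cannot be told apart.

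Scrambled replicate 2 stood apart from the other scrambled libraries. Its chi-square per gene against them was 29.6 and 25.1, where the other pairs of one group gave 3.05 to 5.69. Set against the mean of scrambled replicates 1 and 3 on the log2 CPM scale, it was lower by 1.09 for CDKN1B, 0.99 for CDKN2C, 0.81 for CDK6 and 0.59 for RBL1, and higher by 1.04 for CCND2 and 0.38 for CCND1. CDKN1A, the CDK inhibitor p21, stood at 691 CPM there, against 275 and 277 CPM in the other scrambled libraries. All 34 genes of a list of E2F targets of G1/S and all 25 of a list of G2/M targets of DREAM were lower in it, with median differences of -0.69 and -0.74, while the median over all genes tested was 0.02. The results for the members are therefore given with and without this library. Replicate 2 of each siRNA group was also its group's highest for CDKN1A (335 CPM with siLRWD1-5, 453 CPM with siLRWD1-6) and lowest for CDKN1B and CDKN2C. The fit without scrambled replicate 2 keeps those libraries. With only libraries numbered 1 and 3, CDKN1B with siLRWD1-5 was -0.27, against -0.36 in that fit. CCND1 with siLRWD1-6 was -0.21 and called lower (edgeR, adjusted p under 0.05), against -0.15 and not called. The part of replicate 2 in these log2 fold changes was not tested.

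The levels of the 10 genes spanned a wide range, with CCND1 far above the rest. Per kilobase of merged exons in the scrambled libraries, CCND1 stood at 543 ± 88.3 and CDK4 at 135 ± 5.55 CPM per kilobase (SD, n = 3 each), and neither range overlapped another gene's. CDK4 shares 51.9% of its merged exon bases with TSPAN31 on the other strand, and the part of this overlap in its level was not tested. RB1 followed at 20.2 ± 1.53, then CDKN1B at 18.8 ± 7.03, RBL2 at 17.1 ± 1.11 and CCND3 at 15.5 ± 0.97 CPM per kilobase. Among these, the libraries of RB1 lay above those of RBL2 and CCND3, while CDKN1B overlapped all of them because of scrambled replicate 2, and RBL2 overlapped CCND3. CDK6 at 8.14 ± 2.48, CDKN2C at 7.01 ± 2.46 and RBL1 at 6.42 ± 1.43 CPM per kilobase overlapped one another. CCND2 was last, at 0.38 ± 0.18 CPM per kilobase. The order at the top and the bottom was the same in all 3 groups, and genes between them changed place. CDK6 stood at 4.88 ± 0.20 CPM per kilobase with siLRWD1-5, below CDKN2C at 7.33 ± 0.66. With siLRWD1-6 it stood at 11.5 ± 0.70, above CDKN2C at 5.03 ± 0.32 and the mean of CCND3 at 10.7 ± 0.93, whose libraries it overlapped. The mean of CDKN1B was above that of RB1 with siLRWD1-5 (17.8 ± 1.97 against 17.6 ± 0.57, overlapping). It was also above with siLRWD1-6 (24.1 ± 1.75 against 19.2 ± 1.33, without overlap).

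**Figure D1:**
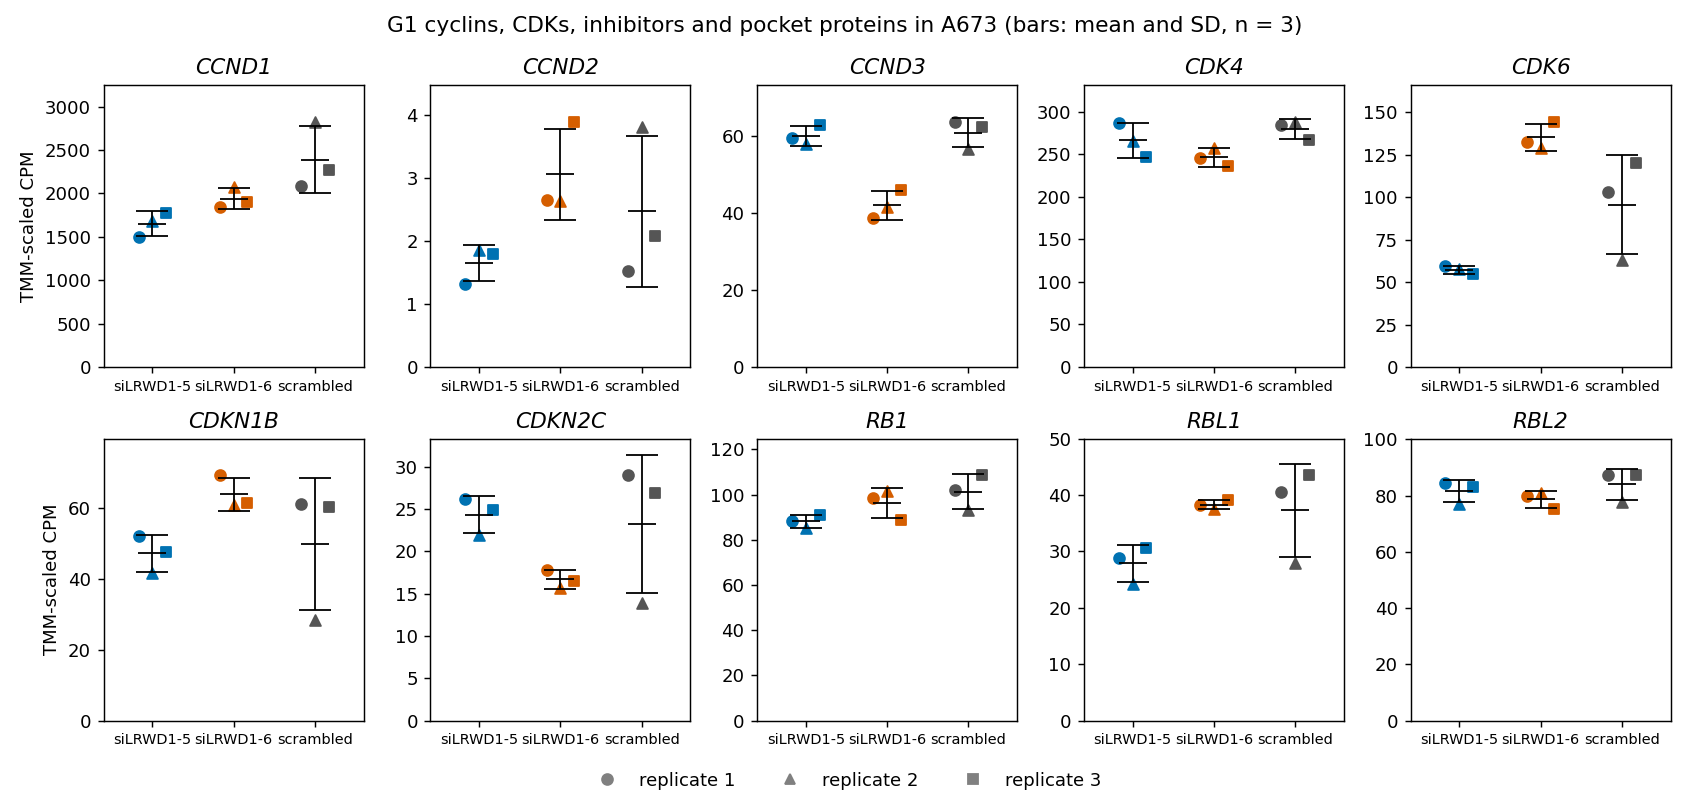
Level of each of the 10 genes in CPM (vertical axes, each from 0) in the 9 libraries, grouped by siRNA; points are libraries, with symbols by replicate number, and bars show the mean and SD of 3. CDK6 lies between 54.6 and 59.3 CPM after siLRWD1-5 and between 129 and 145 CPM after siLRWD1-6, and scrambled replicate 2 lies apart from the other scrambled libraries for CDK6, CDKN1B, CDKN2C and RBL1.

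Of the D-type cyclins, CCND1 fell with siLRWD1-5 and CCND3 fell with siLRWD1-6. CCND1 had 1494, 1684 and 1779 CPM after siLRWD1-5, 1840.3, 2079 and 1904 CPM after siLRWD1-6, and 2081, 2827 and 2266 CPM after the scrambled siRNA. Every siLRWD1-5 library was below every scrambled library, and so was every siLRWD1-6 library, with siLRWD1-6 replicate 2 only just below scrambled replicate 1. The log2 fold change of CCND1 was -0.53 ± 0.11 (SE) with siLRWD1-5, which is 1.45-fold lower (edgeR quasi-likelihood test, adjusted p = 0.003), and -0.30 ± 0.11 with siLRWD1-6 (adjusted p = 0.087). Leaving out scrambled replicate 2 gave -0.40, still past the threshold of 0.05, for siLRWD1-5 and -0.15, not past it, for siLRWD1-6. In other fits with group as the only term, CCND1 passed with siLRWD1-6 without scaling beyond library size (-0.31). It also passed with siLRWD1-6 without scrambled replicate 1 (-0.39) and with only libraries numbered 1 and 3 (-0.21). Between the siRNAs, the fit of all 9 libraries gave 0.23 ± 0.11 (same test, adjusted p = 0.11).

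CCND3, the D cyclin prominent in lymphoid and muscle cells, had 59.4, 57.8 and 62.9 CPM after siLRWD1-5, 38.6, 41.5 and 45.9 CPM after siLRWD1-6, and 63.7, 56.6 and 62.4 CPM after the scrambled siRNA. All 3 siLRWD1-6 libraries were below all 6 others, and the siLRWD1-5 and scrambled libraries overlapped. It changed by -0.54 ± 0.08 on the log2 scale with siLRWD1-6 (1.45-fold lower, adjusted p = 0.0011) and -0.02 ± 0.08 with siLRWD1-5 (adjusted p = 0.85, 95% interval -0.20 to 0.15). Set directly against each other, siLRWD1-6 was lower than siLRWD1-5 by -0.52 ± 0.08 on the log2 scale (adjusted p = 0.00037). The siLRWD1-6 call for CCND3 held without scrambled replicate 2, at -0.58, and the siLRWD1-5 value was -0.07 and not past the threshold.

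CCND2 was close to the lower limit of the data, with 21 to 25 counts per library with siLRWD1-5, 36 to 46 with siLRWD1-6 and 24 to 47 with the scrambled siRNA. Its levels were 1.32, 1.85 and 1.79 CPM after siLRWD1-5, 2.65, 2.63 and 3.89 CPM after siLRWD1-6, and 1.52, 3.81 and 2.08 CPM after the scrambled siRNA, of which 3.81 belongs to scrambled replicate 2. The siLRWD1-6 libraries lay above the siLRWD1-5 libraries without overlap, and the scrambled libraries overlapped both. Neither comparison with the scrambled siRNA passed the test (siLRWD1-5 -0.56 ± 0.34, adjusted p = 0.22; siLRWD1-6 0.32 ± 0.32, adjusted p = 0.54). Without scrambled replicate 2 the siLRWD1-6 value was 0.77 and passed the threshold, and the siLRWD1-5 value was -0.12 and did not.

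Of the 2 kinases, CDK6 fell with siLRWD1-5, and it was higher with siLRWD1-6 than with siLRWD1-5. CDK6 had 59.3, 57.8 and 54.6 CPM after siLRWD1-5, 132, 129 and 145 CPM after siLRWD1-6, and 103, 63.3 and 120 CPM after the scrambled siRNA. The 3 groups did not overlap, but scrambled replicate 2, at 63.3 CPM, lay just above the siLRWD1-5 libraries. On the log2 scale, CDK6 changed by -0.74 ± 0.19 with siLRWD1-5 (1.67-fold lower, adjusted p = 0.015) and 0.50 ± 0.19 with siLRWD1-6 (adjusted p = 0.11). Between the siRNAs it was 1.24 ± 0.19, which is 2.36-fold higher with siLRWD1-6 (adjusted p = 0.00082). CDK6 was past the threshold in both directions, at -0.96 with siLRWD1-5 and 0.29 with siLRWD1-6, when scrambled replicate 2 was left out. The siLRWD1-5 call was lost without siLRWD1-5 replicate 3, where the value was -0.71 (adjusted p = 0.05; 9.66e-11 to 0.05 over the alternatives).

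CDK4, the more abundant kinase per kilobase, had 286, 266 and 246 CPM after siLRWD1-5, 245, 258 and 235 CPM after siLRWD1-6, and 285, 288 and 267 CPM after the scrambled siRNA. The siLRWD1-6 libraries lay below the scrambled libraries and the siLRWD1-5 libraries overlapped both groups. No comparison passed the test in the fit of all 9 libraries with TMM scaling and group as the only term. The log2 fold change was -0.07 ± 0.07 with siLRWD1-5 (adjusted p = 0.43, 95% interval -0.22 to 0.08) and -0.18 ± 0.07 with siLRWD1-6 (adjusted p = 0.087). Leaving out scrambled replicate 2 gave -0.05 and -0.15, neither past the threshold. In other fits with group as the only term, CDK4 passed with siLRWD1-6 using only libraries numbered 1 and 3 (-0.19). It also passed between the siRNAs without scaling beyond library size (-0.18). CDK4 shares 51.9% of its merged exon bases with TSPAN31 on the other strand, and no source used here says that strand was used in counting, so their reads cannot be told apart there; TSPAN31 was at 11.3 to 14.9 CPM over the 9 libraries and passed in no comparison.

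Neither inhibitor passed against the scrambled siRNA when all libraries were fitted, and both were lowest in scrambled replicate 2. CDKN1B had 52.3, 41.8 and 47.7 CPM after siLRWD1-5, 69.3, 61.0 and 61.5 CPM after siLRWD1-6, and 61.3, 28.4 and 60.3 CPM after the scrambled siRNA. The siLRWD1-6 libraries lay above the siLRWD1-5 libraries without overlap, and scrambled replicate 2 was the lowest of all 9. Neither siRNA passed against the scrambled siRNA (siLRWD1-5 -0.08 ± 0.25, adjusted p = 0.82; siLRWD1-6 0.35 ± 0.25, adjusted p = 0.39). CDKN1B was past the threshold with siLRWD1-5, at -0.36, and not with siLRWD1-6, at 0.08, when scrambled replicate 2 was left out.

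CDKN2C had 26.2, 21.9 and 24.8 CPM after siLRWD1-5, 17.8, 15.7 and 16.5 CPM after siLRWD1-6, and 29.0, 13.9 and 26.9 CPM after the scrambled siRNA. The siLRWD1-6 libraries lay below the siLRWD1-5 libraries and below scrambled replicates 1 and 3, but above scrambled replicate 2. The log2 fold change was 0.06 ± 0.22 with siLRWD1-5 (adjusted p = 0.86) and -0.49 ± 0.23 with siLRWD1-6 (adjusted p = 0.19). Without scrambled replicate 2 it was -0.20 with siLRWD1-5, a change of sign and not past the threshold, and -0.73 with siLRWD1-6, past the threshold. CDKN2A and CDKN2B, the INK4 genes that neighbour each other on the genome, had 0 counts in all 9 libraries of 122643734 counts together, which allows at most 0.191 to 0.251 CPM per library (3 counts; counting error only). CD99, a surface protein used as a marker of Ewing sarcoma, was also at 0 in 8 of the 9 libraries, with 50 counts in siLRWD1-5 replicate 2. The part of read assignment in such zeros was not tested.

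Of the pocket proteins, RBL1 fell with siLRWD1-5, and RB1 and RBL2 passed the test in no comparison with all libraries. RBL1 had 28.9, 24.2 and 30.6 CPM after siLRWD1-5, 38.3, 37.6 and 39.1 CPM after siLRWD1-6, and 40.5, 27.9 and 43.5 CPM after the scrambled siRNA. The siLRWD1-5 and siLRWD1-6 libraries did not overlap, and scrambled replicate 2 lay within the siLRWD1-5 range. RBL1 had a log2 fold change of -0.42 ± 0.15 with siLRWD1-5 (1.34-fold lower, adjusted p = 0.043), 0.04 ± 0.15 with siLRWD1-6 (adjusted p = 0.90) and 0.46 ± 0.15 between siLRWD1-6 and siLRWD1-5 (1.37-fold higher, adjusted p = 0.028). With scrambled replicate 2 left out, the siLRWD1-5 value was -0.59 and passed the threshold, and the siLRWD1-6 value was -0.12 and did not. Leaving out any 1 of the other 8 libraries ended the siLRWD1-5 call, with log2 fold changes of -0.49 to -0.30 and adjusted p of 0.0557 to 0.154 (1.34e-05 to 0.154 over all alternatives). The call between the siRNAs was lost without siLRWD1-5 replicate 1 or 2, or any siLRWD1-6 library, at 0.37 to 0.48 (adjusted p = 0.0615 to 0.0989; 5.59e-05 to 0.0989 over all alternatives).

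RB1, the retinoblastoma protein, had 88.1, 85.3 and 91.1 CPM after siLRWD1-5, 98.7, 102 and 88.9 CPM after siLRWD1-6, and 102, 93.3 and 109 CPM after the scrambled siRNA. All siLRWD1-5 libraries were below all scrambled libraries. The log2 fold change was -0.20 ± 0.07 with siLRWD1-5 (adjusted p = 0.051) and -0.07 ± 0.07 with siLRWD1-6 (adjusted p = 0.56), and without scrambled replicate 2 the siLRWD1-5 value was -0.26 and past the threshold. RBL2 varied least: 84.6, 77.0 and 83.2 CPM after siLRWD1-5, 79.9, 80.9 and 75.1 CPM after siLRWD1-6, and 87.2, 77.7 and 87.2 CPM after the scrambled siRNA, with all groups overlapping. Its log2 fold changes were -0.04 ± 0.07 with siLRWD1-5 (95% interval -0.19 to 0.11) and -0.10 ± 0.07 with siLRWD1-6 (95% interval -0.25 to 0.06), and without scrambled replicate 2 they were -0.10 and -0.14, neither past the threshold. RBL2 shares 12.4% of its merged exon bases with AKTIP on the other strand. AKTIP passed in no comparison, at -0.32 with siLRWD1-5 and -0.08 with siLRWD1-6. Other members also share exon bases. CCND1 shares 11.3% with LTO1 on the other strand, and CCND2 shares 15.3% with AC008012.1 on the same strand. Smaller overlaps were found for RBL1 (3.63%) and CCND3 (0.61%). The part of these overlaps in the counts was not tested.

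Among the members with a promoter window, RBL1 alone held words of the kind bound by E2F factors, and its window is shown beside that of CDC6, the replication licensing factor and E2F target with the smallest p of its list with siLRWD1-5. RefSeq windows (GRCh38.p14) from 250 bases before to 50 bases after the start were used for 8 of the 10 genes, all but CCND1 and CCND2. They were searched on both strands for the E2F-type words TTTGGCGC, TTTCGCGC, TTTCCCGC and TTTGCCGC. Capitals mark the matches, which do not overlap each other. RBL1 lies at chr20:37095948-37096247 on the minus strand and CDC6 at chr17:40287629-40287928 on the plus strand.
RBL1: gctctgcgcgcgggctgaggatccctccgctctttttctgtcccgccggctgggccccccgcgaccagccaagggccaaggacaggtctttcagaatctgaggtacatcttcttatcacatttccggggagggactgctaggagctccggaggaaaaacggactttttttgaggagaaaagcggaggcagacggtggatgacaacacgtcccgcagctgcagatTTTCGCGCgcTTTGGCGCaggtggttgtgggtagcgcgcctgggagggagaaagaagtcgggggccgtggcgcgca
CDC6: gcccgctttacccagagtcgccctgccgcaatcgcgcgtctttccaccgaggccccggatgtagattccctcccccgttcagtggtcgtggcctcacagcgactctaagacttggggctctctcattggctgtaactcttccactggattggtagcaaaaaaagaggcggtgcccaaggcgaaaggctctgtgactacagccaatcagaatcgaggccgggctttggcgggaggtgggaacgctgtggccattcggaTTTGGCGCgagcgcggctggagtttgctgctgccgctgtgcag
RBL1 was the only one of the 8 genes with any of these words, and it held 2 of them side by side just before its start. Of all 27305 genes with a window, 3.99% held at least 1 word, as did 18 of 29 E2F targets of G1/S and 2 of 21 G2/M targets. The word TTTGAA, which resembles the cell cycle homology region of G2/M genes, was found in the window of RBL2 only among the members, in 18.2% of all genes with a window and in 14 of 21 G2/M targets. A match describes the letters of the window and not a bound site.

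Read over the whole set, 3 of the 10 genes passed with siLRWD1-5, all lower (CCND1, CDK6 and RBL1). That is near the background, since of the 13648 genes tested 38.8% passed in this comparison and 20.3% were lower calls. With siLRWD1-6, 1 of 10 passed (CCND3, lower), where 16.6% of all genes passed and 7.78% were lower. Between siLRWD1-6 and siLRWD1-5, 3 of 10 passed, with CDK6 and RBL1 higher and CCND3 lower, where 43.4% of all genes passed. In that comparison 3063 genes were higher and 2856 lower, or 2478 higher and 3609 lower without scaling beyond library size. Counted in either direction, these shares of members lie below those of all genes, and the 3 and 1 lower calls against the scrambled siRNA lie above the shares of lower calls; with 10 genes neither is read as a result about the set. Both comparisons with the scrambled siRNA share its 3 libraries.

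Without scrambled replicate 2, 5 of 10 passed with siLRWD1-5, all lower (CCND1, CDK6, CDKN1B, RB1 and RBL1), where 49.0% of all 13868 genes tested passed and 25.0% were lower. With siLRWD1-6, CCND2 and CDK6 were higher and CCND3 and CDKN2C lower, where 28.5% of all genes passed. Between the siRNAs, 7 of 10 passed, where 54.4% of all genes did. A fit of the siLRWD1-6 and siLRWD1-5 libraries alone, which leaves the scrambled libraries out of the estimate of spread, also called 7 of 10, where 55.4% of all genes passed. CCND1 (0.23), CCND2 (0.88), CDK6 (1.24), CDKN1B (0.43) and RBL1 (0.46) were higher with siLRWD1-6 than with siLRWD1-5 on the log2 scale, and CCND3 (-0.52) and CDKN2C (-0.54) were lower. CDK4, RB1 and RBL2 passed in neither direction there.

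**Figure D2:**
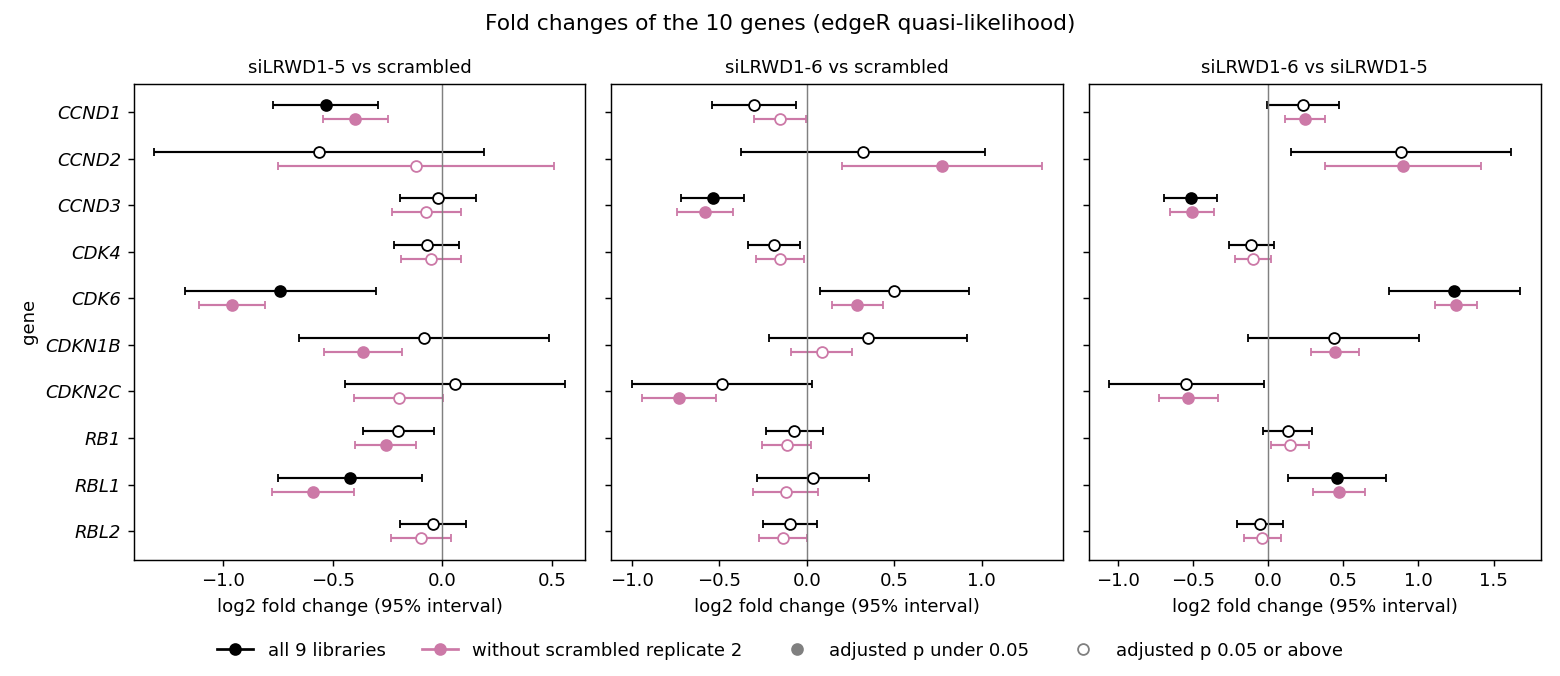
Log2 fold change of each gene (horizontal axes) with its 95% interval for siLRWD1-5 and siLRWD1-6 against the scrambled siRNA and for siLRWD1-6 against siLRWD1-5, with all 9 libraries (black) and without scrambled replicate 2 (pink); filled points have an adjusted p under 0.05. The intervals narrow without that library, and CDK6 lies at -0.74 with siLRWD1-5 and 0.50 with siLRWD1-6 in the fit of all libraries.

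The make-up of each family was then set out as shares of the summed level per kilobase, a measure that does not depend on scaling between libraries. These shares were chosen after the levels had been seen, and with 3 libraries a group the exact permutation test cannot go below p = 0.1 (two-sided; 15 tests, adjusted p = 0.15 for each at that limit). The CDKN2C share of the 2 inhibitors was 28.6, 29.6 and 29.4% with siLRWD1-5, 17.1, 17.1 and 17.7% with siLRWD1-6, and 27.5, 28.2 and 26.3% with the scrambled siRNA. The groups did not overlap, and scrambled replicate 2 lay close to its group here although both of its inhibitor levels were low. The means were 29.2 ± 0.49% with siLRWD1-5, 17.3 ± 0.34% with siLRWD1-6 and 27.3 ± 0.95% with the scrambled siRNA (SD, n = 3 each; exact permutation p = 0.1 for each pair of groups).

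The CDK6 share of the 2 kinases averaged 3.67 ± 0.13% with siLRWD1-5, 8.89 ± 0.84% with siLRWD1-6 and 5.72 ± 1.84% with the scrambled siRNA (SD, n = 3 each). The siLRWD1-6 libraries lay above all others, and scrambled replicate 2, at 3.74%, lay within the siLRWD1-5 range of 3.54 to 3.78%. The size of this share rests on the CDK4 level per kilobase, and 51.9% of the merged exon bases of CDK4 are shared with TSPAN31. The part of that overlap in the share was not tested. The RBL1 share of the 3 pocket proteins averaged 12.3 ± 0.89% with siLRWD1-5, 15.8 ± 1.02% with siLRWD1-6 and 14.5 ± 2.02% with the scrambled siRNA. CCND1 made up 96.0 ± 0.29% of the D cyclin level with siLRWD1-5, 97.5 ± 0.26% with siLRWD1-6 and 97.1 ± 0.56% with the scrambled siRNA, so the falls in CCND1 and CCND3 left it the main D cyclin transcript in all groups.

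**Figure D3:**
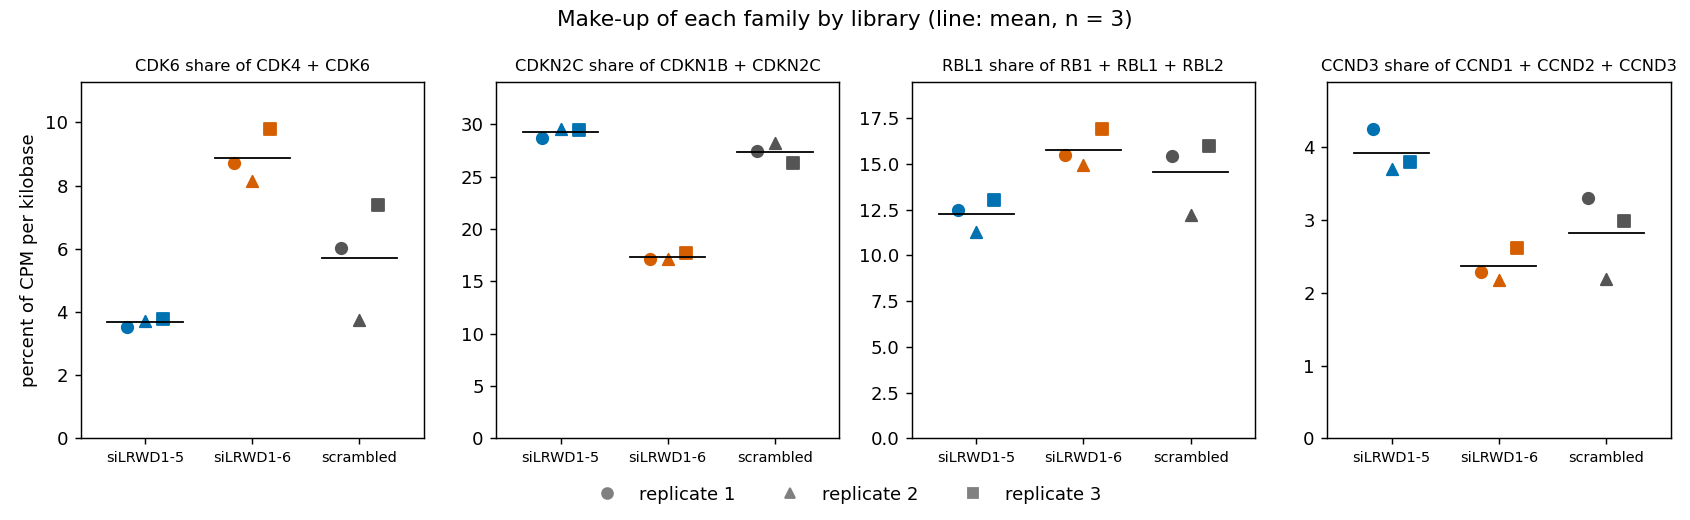
Share in percent (vertical axes from 0) of CDK6 among the kinases, CDKN2C among the inhibitors, RBL1 among the pocket proteins and CCND3 among the D cyclins, per library and by group, from levels per kilobase; points are libraries and lines are means of 3. The CDKN2C share lies between 17.1 and 17.7% with siLRWD1-6 and between 26.3 and 29.6% in all other libraries.

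Around these genes, 5 lists of partners and targets were read from the same fits. Of 11 other G1 kinases, cyclins and inhibitors that could be tested, edgeR called 0 with siLRWD1-5 (1 at an unadjusted p under 0.05, 0 by limma-voom, 1 by DESeq2), where 38.8% of all genes passed. With siLRWD1-6, 2 fell, where 7.78% of all genes were lower calls. Leaving out scrambled replicate 2 gave 1 higher and 2 lower with siLRWD1-5, and 4 lower with siLRWD1-6. In that fit 49.0% of all genes passed with siLRWD1-5, and 28.5% with siLRWD1-6, where 1838 of 13868 genes were lower. CCNE2, a cyclin E that activates CDK2, had 5.30, 4.02 and 3.39 CPM after siLRWD1-6 and 7.27, 9.24 and 10.0 CPM after the scrambled siRNA (log2 fold change -1.05 ± 0.23, adjusted p = 0.011). CDKN2D, the INK4 inhibitor p19, had 6.41, 6.87 and 7.20 CPM after siLRWD1-6 and 11.2, 12.2 and 9.18 CPM after the scrambled siRNA (-0.67 ± 0.14, adjusted p = 0.0065). For both genes all siLRWD1-6 libraries lay below all scrambled libraries, and both calls held without scrambled replicate 2. CCNE2 and CDKN2D did not pass with siLRWD1-5, at -0.14 each.

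Of 18 E2F, DP, MuvB and partner factors, 5 fell with siLRWD1-5, and 5 rose and 1 fell with siLRWD1-6, where 38.8% of all genes passed with siLRWD1-5 and 16.6% with siLRWD1-6. The median log2 fold changes were 0.01 and -0.08, where those of all genes were -0.01 and -0.02. With siLRWD1-5 the smallest p belonged to E2F5, a repressive E2F that partners pocket proteins (-0.58), the atypical repressor E2F7 (-0.83), the histone chaperone and MuvB subunit RBBP4 (-0.40) and the MuvB subunit LIN52 (-0.69). With siLRWD1-6 they were TFDP2, a DP partner of E2F (-0.51), MYBL1, the A-MYB factor (0.72), the DNA-binding MuvB subunit LIN54 (0.56) and E2F4, the main E2F of repressive pocket protein complexes (0.35). E2F5 was among the genes called in opposite directions, with 11.1, 10.1 and 11.3 CPM after siLRWD1-5, 20.1, 20.2 and 20.5 CPM after siLRWD1-6, and 16.6, 15.6 and 16.4 CPM after the scrambled siRNA. The 3 groups did not overlap, and the difference between siLRWD1-6 and siLRWD1-5 was 0.90 ± 0.09 on the log2 scale (adjusted p = 1.4e-05). Without scrambled replicate 2, 6 fell and 1 rose with siLRWD1-5, and 8 fell and 5 rose with siLRWD1-6. In that fit 49.0% of all genes passed with siLRWD1-5 and 28.5% with siLRWD1-6.

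Of 16 genes for turnover of D cyclins and p27, 3 rose and 4 fell with siLRWD1-5, and 2 rose and 1 fell with siLRWD1-6, counts near the 38.8% and 16.6% of all genes that passed. Without scrambled replicate 2, 4 rose and 3 fell with siLRWD1-5, and 2 rose and 2 fell with siLRWD1-6. In that fit 49.0% of all genes passed with siLRWD1-5 and 28.5% with siLRWD1-6. BTRC, a substrate receptor of SCF ubiquitin ligases, had 65.7, 65.3 and 66.9 CPM after siLRWD1-5, 33.2, 34.8 and 31.4 CPM after siLRWD1-6, and 40.4, 46.8 and 43.4 CPM after the scrambled siRNA. It rose with siLRWD1-5 (0.60, adjusted p = 7.7e-05) and fell with siLRWD1-6 (-0.39, adjusted p = 0.0046), with no overlap of the 3 groups. SKP2, the receptor that directs p27 to degradation, fell with siLRWD1-5 to 54.8, 43.6 and 51.7 CPM, against 112, 64.8 and 121 CPM after the scrambled siRNA (-0.99 ± 0.21, adjusted p = 0.0055). SKP1, the adaptor of the same ligases (-0.63), and the scaffold CUL4B (-0.28) also fell with siLRWD1-5. The ring finger subunit RBX1 rose with both siRNAs (0.44 with siLRWD1-5 and 0.39 with siLRWD1-6), as did FZR1, the CDH1 activator of the anaphase-promoting complex (0.22 and 0.25). These directions were the same without scrambled replicate 2.

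Of 34 E2F targets of G1/S, 12 fell with siLRWD1-5 and 2 with siLRWD1-6, where 20.3% and 7.78% of all genes were lower calls. Of 25 G2/M targets of DREAM, 4 fell with siLRWD1-5, and edgeR called 0 with siLRWD1-6 (0 at an unadjusted p under 0.05, 0 by limma-voom, 0 by DESeq2). CDC6 had 48.1, 40.8 and 43.1 CPM after siLRWD1-5, 81.0, 77.2 and 87.7 CPM after siLRWD1-6, and 98.4, 63.5 and 99.7 CPM after the scrambled siRNA. It fell with siLRWD1-5 (-0.99 ± 0.16, adjusted p = 0.00086) and did not pass with siLRWD1-6 (-0.09). The replication factor MCM10 (-0.84), the polymerase clamp PCNA (-0.47) and the Polycomb methyltransferase EZH2 (-0.29) also fell with siLRWD1-5, and with siLRWD1-6 the 2 that fell were RRM2, a ribonucleotide reductase subunit (-0.62), and the chromatin assembly subunit CHAF1B (-0.41). Of the G2/M genes, CDC20, the mitotic activator of the anaphase-promoting complex, had 38.7, 34.7 and 38.2 CPM after siLRWD1-5, 153, 148 and 160 CPM after siLRWD1-6, and 179, 109 and 170 CPM after the scrambled siRNA. It fell with siLRWD1-5 by 2.04 on the log2 scale (adjusted p = 1.7e-05), followed by the topoisomerase TOP2A (-0.89), the spindle kinesin KIF11 (-0.59) and the mitotic kinase AURKA (-0.49).

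The counts for both target lists turned on scrambled replicate 2, in which every gene of the lists was low. Without it, 28 of 34 E2F targets fell with siLRWD1-5 and 27 of 34 with siLRWD1-6, with medians of -0.40 and -0.28. Of the G2/M targets, 15 of 25 fell with each siRNA and 1 rose with siLRWD1-5, with medians of -0.27 with siLRWD1-5 and -0.19 with siLRWD1-6. The medians of all genes in those fits were -0.0016 with siLRWD1-5 and -0.0030 with siLRWD1-6, and 49.0% and 28.5% of all genes passed in either direction. Lower calls were 25.0% of all genes with siLRWD1-5 and 1838 of 13868 genes with siLRWD1-6. Leaving out a library in which every listed gene was low by itself moves these fold changes down. Replicate 2 of both siRNA groups was kept. Over the 18 alternatives, 9 to 28 E2F targets were called with siLRWD1-5 and 0 to 27 with siLRWD1-6. For the G2/M targets the ranges were 2 to 16 and 0 to 15. The fit without scrambled replicate 2 stood at the top of each range. The part of replicate 2 in these counts was not tested.

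**Figure D4:**
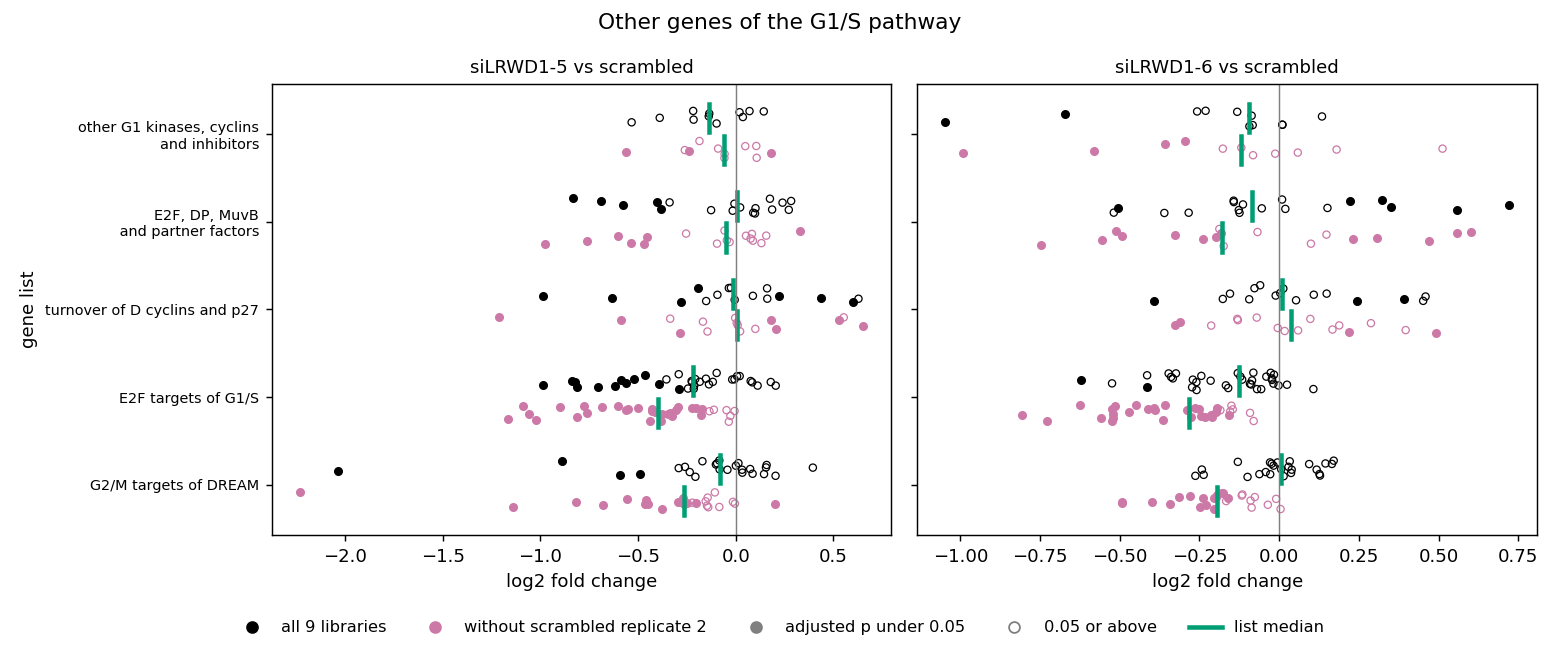
Log2 fold change (horizontal axes) of each tested gene of the 5 lists (points, filled where the adjusted p is under 0.05) with list medians as vertical bars, for siLRWD1-5 and siLRWD1-6 against the scrambled siRNA, with all 9 libraries (black) and without scrambled replicate 2 (pink). The median of the E2F targets of G1/S is -0.22 with siLRWD1-5 and -0.13 with siLRWD1-6 with all libraries, and -0.40 and -0.28 without that library.

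The genes whose log2 CPM went most closely with the member that changed most in each comparison with the scrambled siRNA were picked among 10897 genes of at least 5 CPM on average. The likeness is a description over the same 9 libraries and carries no test. For CDK6 they were the collagen receptor DDR2 (Pearson r = 0.990), the pantothenate kinase PANK3 (0.989) and the Notch receptor NOTCH2 (0.987), which fell with siLRWD1-5 by 0.30, 0.30 and 0.43 on the log2 scale. For CCND3 they were PHF13 (0.993), AP3M2 (0.985) and LSMD1 (0.984), with log2 fold changes with siLRWD1-6 of -0.67, -0.58 and -1.75.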

How the data were processed

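Whole-number read counts per gene symbol for 9 libraries were deposited by the authors as raw values. The submitters' processing notes name HTSeq 0.5.4p3, TopHat2 2.0.10, bcl2fastq 1.8.4 and the hg19 build. Strand use, overlap handling and read filters are not given in the sources used. TruSeq v2 libraries were made, per the labels' protocols.

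Counts were tested with edgeR 4.0.16 in R 4.3.3 (TMM scaling, filterByExpr, robust quasi-likelihood fit, group as the only term, all 9 libraries), with Benjamini-Hochberg adjustment over all genes tested and a threshold of 0.05. CPM use TMM-scaled library sizes. Levels per kilobase divide CPM by merged exon length in GENCODE on GRCh38, a newer build than the counts. limma 3.58.1 (limma-voom), DESeq2 1.42.0, other scalings and filters, a replicate block and leaving out each library were the alternatives. The tests were tried on simulated counts first, with known changes placed in siLRWD1-5. Of 71 genes given a log2 change of 0.5 in either direction, 45.1% were called in the right direction. Of 76 given a change of 1, 90.8% were. Of the simulated calls, 6.75% were false. Limits on a count of 0 cover counting error only, and the 95% intervals of fold changes include the spread between libraries.

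The members and lists were chosen with earlier results of these data known, so no list has a test of its own. Every member is named. Of each list, up to 4 called genes with the smallest p are named, and others only with their values. For likeness, the 3 genes with the highest correlation with the most changed member were taken.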

Additional observations from a re-analysis of the deposited data

How the results depend on the processing

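Over 18 alternatives, 470 of 540 member values kept their direction and their side of the threshold, 19 lost a call, 38 gained one and 13 changed direction. CCND1 with siLRWD1-5 and CCND3 with siLRWD1-6 kept their calls in all 18, as did CDK6 and CCND3 between the siRNAs; RBL1 with siLRWD1-5 lost its call without scaling (-0.37), without a filter (-0.42), with limma-voom (-0.41) and with only the groups compared (-0.42). The cause of these shifts was not tested.

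With siLRWD1-6, 2 members passed without scaling, 2 with DESeq2 and 6 with only libraries numbered 1 and 3, where 5 passed with siLRWD1-5, 7 between the siRNAs, and 3579 genes in all with siLRWD1-6. Between the siRNAs, 7 passed with only the groups compared, where 7458 of 13466 genes did. Leaving out 1 library gave 1 to 5 members with siLRWD1-5, 1 to 4 with siLRWD1-6 and 2 to 7 between the siRNAs, and 1248 to 3953 genes in all with siLRWD1-6, against 2265. Over all 18 alternatives the range with siLRWD1-6 was the same. With siLRWD1-5, 4189 to 6790 genes in all passed over the 18, against 5292 in the main fit. Between the siRNAs, 4685 to 7551 did, against 5919.

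The replicate numbers were used as a block in another fit. It called 3 members with siLRWD1-5, 3 with siLRWD1-6 (CCND3, with CCND1 at -0.29 and CDK4 at -0.18 added) and 6 between the siRNAs (CCND1, CCND2 and CDKN2C added), and 5925, 2815 and 6492 genes in all. The labels number series 1 to 3 in each group without saying what a series shares; deviations of same-numbered libraries correlated at 0.05 to 0.37, 7 of 9 pairs over 0.1, and 8 of 9 libraries went best with their own number.

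Uncalled values changed sign: with siLRWD1-5, CCND3 (0.030) and RBL2 (0.0086) without scaling and CDKN2C (-0.12) with only libraries numbered 1 and 3, and with siLRWD1-6 RBL1 (-0.11) there. Leaving out 1 library with siLRWD1-5 gave CCND3 -0.074 to 0.012, CDKN1B -0.36 to 0.090, CDKN2C -0.20 to 0.25 and RBL2 -0.10 to 0.0044, and with siLRWD1-6 RBL1 -0.12 to 0.16.

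At 21 to 47 counts a library, CCND2 is the member that depth limits most.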
